A study of Mus musculus with 10 samples.

Results

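Dyneins are the motor proteins that walk along microtubules toward their minus ends. Axonemal dyneins form rows of outer and inner arms on the doublet microtubules of motile cilia and make them bend, while cytoplasmic dynein 1 carries cargo and positions the spindle, and cytoplasmic dynein 2 brings material back from the tip of the cilium. A dynein is built from heavy chains, which hold the motor, and from intermediate, light intermediate and light chains, and the axonemal arms are put together in the cytoplasm by assembly factors before they enter the cilium. In the nose, ciliated cells use axonemal dyneins to move mucus, and loss of arm components is known to cause primary ciliary dyskinesia.

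The dynein genes were taken by symbol from the array's annotation: all symbols starting with Dnah, Dnai, Dnal, Dnaaf, Dync, Dynl or Odad, and Zmynd10, Spag1 and Ccdc103, where a probe set carried a single symbol. This gave 36 of 22180 genes, each read from 1 probe set: 5 outer arm heavy chains, 6 inner arm heavy chains, 5 axonemal intermediate and light chains, 8 assembly factors, 5 genes of cytoplasmic dynein 1, 2 of cytoplasmic dynein 2 and 5 light chains that different dyneins share. No probe set with a single symbol was named Odad or Ccdc103, and 9 probe sets that carried a dynein symbol together with others, among them those of Dnaaf2 and Dynlt1, were left out. RNA came from nasal respiratory epithelium of E16.5 mice, cut by laser capture from fixed, paraffin-embedded sections and hybridised to 1 Affymetrix array per embryo. There were 5 wild-type embryos (WT, 4 females and the male WT 3) and 5 embryos that were miR-34a-/- and, besides, miR-34b/c-/- as well as miR-449a/b/c-/- (TKO, the females TKO 1 and TKO 3 and the males TKO 2, TKO 4 and TKO 5). The labels give no strain and no litter, so p-values measure the spread between these embryos. Levels are log2 values from RMA, a change is TKO minus WT, and the number of arrays limits the precision. The comparison asks what loss of these microRNAs does to the epithelium, and here to its motors.

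The deleted microRNAs share their seed, the bases 2 to 8 that pair with target transcripts. The mature sequences of miR-34a, miR-34b, miR-449a and miR-449c are shown because this shared seed is what the knockout removes. Those of miR-34c and miR-449b, which were also deleted, are not shown. The seed is in capitals, and sequences and positions are those of RefSeq on GRCm38.p6.
miR-34a-5p (chr4:150068473-150068494, + strand): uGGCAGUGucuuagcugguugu
miR-34b-5p (chr9:51103610-51103632, - strand): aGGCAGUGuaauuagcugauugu
miR-449a-5p (chr13:113037549-113037570, + strand): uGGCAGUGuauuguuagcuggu
miR-449c-5p (chr13:113036008-113036028, + strand): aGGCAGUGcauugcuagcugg
Of the probe sets of the deleted genes, Mir449c had a mean of 7.26 (SD 0.28) over the 5 WT and of 3.67 (SD 0.49) over the 5 TKO embryos, and Mir449a of 7.20 (SD 0.31) and 5.41 (SD 0.29). Mir449b averaged 12.17 and 11.79 and Mir34b 5.76 and 5.49, also with no overlap (limma adjusted p = 0.0318 and 0.166 over all 22180 genes). Mir34a averaged 3.46 and 3.40 and Mir34c 3.28 and 3.11, and their groups overlapped. Both lay below 4.58, the filter on dim genes used for the other tests, in WT as well. Their overlap therefore does not bear on the deletion.

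Of the dynein genes taken by symbol, 1 passed the test. Genes that stand under earlier symbols are given apart below, and Wdr34 of dynein 2 fell among them. Dnah8, an outer arm heavy chain known in mouse mainly from the sperm tail and close in sequence to Dnah5, rose 1.64-fold in TKO after adjustment for sex, while none of the 33 tested genes fell. Of the 33 dynein genes bright enough to be tested, 1 rose, 0 fell and 32 did not pass (limma with sex as a covariate, Benjamini-Hochberg adjusted p below 0.05 over 16635 genes). Over all genes tested, 5.51% were called, 4.39% higher and 1.12% lower, so the number of dynein genes called is near the background. At an unadjusted p below 0.05, 3 dynein genes were higher and 6 lower, against 20.9% of all genes in either direction, 13.2% higher and 7.72% lower. The median change was -0.03 over the 33 genes and -0.00052 over all genes.

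Dnah8 lay at 8.46, 8.68, 8.45, 8.24 and 8.52 in WT 1 to WT 5 and at 9.13, 9.28, 9.28, 9.06 and 9.04 in TKO 1 to TKO 5. Every TKO embryo was above every WT embryo, with no overlap between the groups. The change was 0.71 ± 0.09 (SE; 95% interval 0.51 to 0.91; limma adjusted p = 0.00161), and the exact two-sided permutation p was 0.00794, the smallest that 5 against 5 embryos can give. Dnah8 was the only dynein gene whose arrays did not overlap between genotypes; over all genes 7.6% did not overlap, 5.54% with TKO higher and 2.07% with TKO lower. In females alone the change was 0.73 (limma adjusted p = 0.0624), and with a score of non-epithelial markers as a covariate it was 0.50 (limma adjusted p = 0.0519); over all other settings and left-out arrays the call held.

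**Figure D1:**
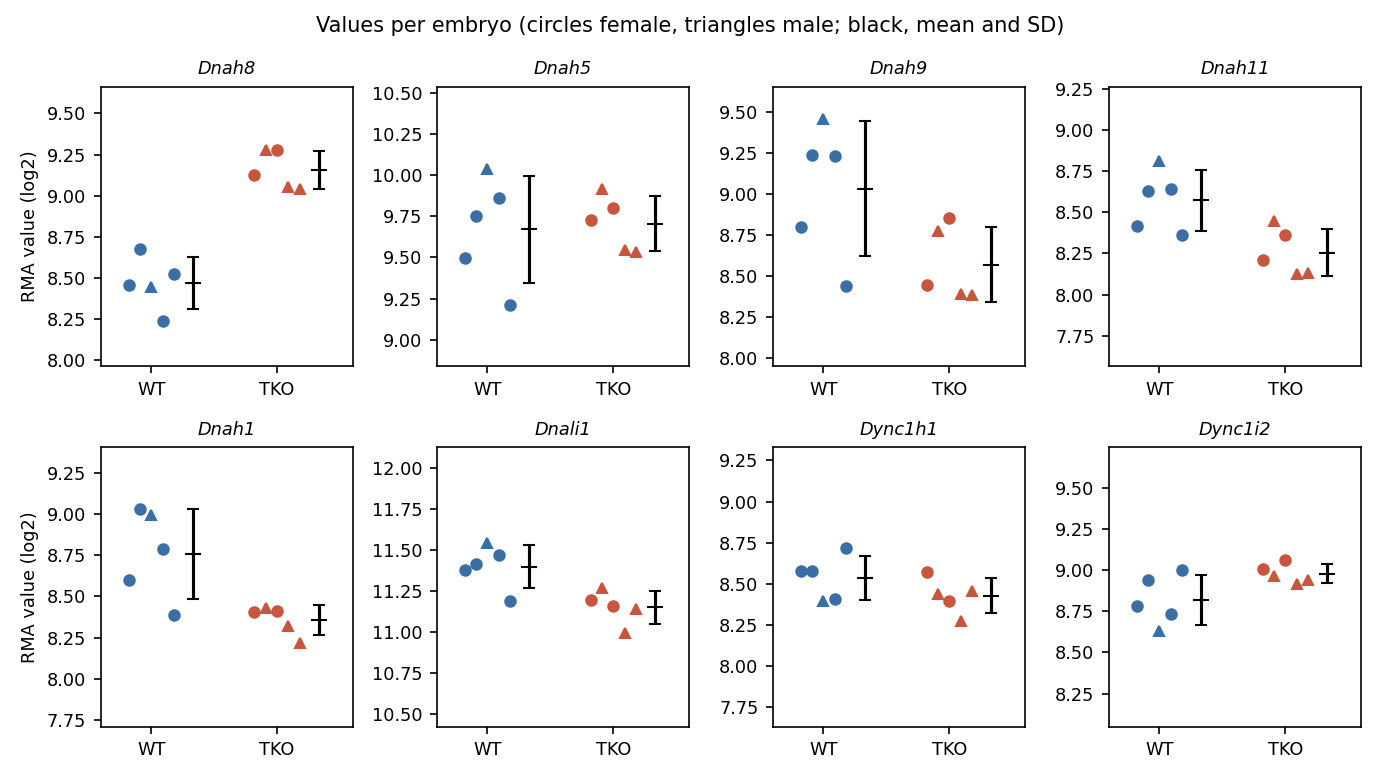
RMA values on the log2 scale of 8 dynein genes in each embryo, with circles for females, triangles for males and black bars for the mean and SD of each genotype (n = 5); all panels span an equal width on the vertical axis. Dnah8 is the panel in which all TKO embryos lie above all WT embryos, while the genotypes overlap for the other 7 genes.

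Dnah8 lies on chromosome 17, and the 250 bases before its annotated start (chr17:30626686-30626935, + strand, GRCm38.p6, RefSeq) are printed because it passed the test. The capitals mark TAAACA, the core letters bound by forkhead factors such as Foxj1, which is known as the main activator of motile cilia genes.
Dnah8: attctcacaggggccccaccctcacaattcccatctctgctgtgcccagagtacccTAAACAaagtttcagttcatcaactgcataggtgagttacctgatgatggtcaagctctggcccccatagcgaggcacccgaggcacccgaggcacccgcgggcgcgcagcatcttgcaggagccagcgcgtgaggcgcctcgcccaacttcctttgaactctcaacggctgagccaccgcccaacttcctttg
The same letters stood in the promoters of 4 other axonemal heavy chains, shown here in windows of 30 bases with the match in capitals (TAAACA, or TGTTTA where it is on the other strand), because 3 of them, Dnah5, Dnah11 and Dnah1, did not rise with Dnah8 and Dnah17 was too dim to test.
Dnah5 (chr15:28203651-28203680, + strand): ttctcttgttgcTAAACAtgattaagaggc
Dnah11 (chr12:118199212-118199241, - strand): ttcatccacagtTAAACAttgagcatttag
Dnah17 (chr11:118129403-118129432, - strand): ccaggggtacccTGTTTAcctgatgaccct
Dnah1 (chr14:31323860-31323889, - strand): tgaaaactttgcTGTTTAggggagccggta
In the promoter table, which spans 250 bases before to 50 after each start, TAAACA was found on either strand in 5 of 16 axonemal subunits (31.2%) and in 15.1% of 27025 genes. Over all 31 dynein genes with a promoter it stood in 6 (19.4%), with 0 of 6 assembly factors, 1 of 5 genes of cytoplasmic dynein and 0 of 4 shared light chains. A gene was counted if any of its annotated starts had a match. The windows of Dnah5, Dnah17 and Dnah1 lie inside the span of the gene and not at its outer start. A match describes letters and not a bound site.

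The other outer arm heavy chains did not move with Dnah8. Dnah5, the heavy chain of all outer arms in airway cilia, was 9.49, 9.75, 10.03, 9.86 and 9.21 in WT 1 to WT 5 and 9.73, 9.92, 9.80, 9.55 and 9.54 in TKO 1 to TKO 5. Its TKO embryos lay within the WT range, and the change was -0.01 (95% interval -0.34 to 0.32; limma adjusted p = 0.970).

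Dnah9, the partner of Dnah5 in the distal cilium, was 8.80, 9.23, 9.46, 9.23 and 8.44 in WT 1 to WT 5 and 8.45, 8.78, 8.85, 8.39 and 8.38 in TKO 1 to TKO 5. WT 2, WT 3 and WT 4 were above all TKO embryos, and WT 1 and WT 5 were among them; the change was -0.51 ± 0.19 (SE; limma adjusted p = 0.149). Dnah11, its proximal counterpart, was 8.42, 8.63, 8.81, 8.64 and 8.36 in WT and 8.21, 8.45, 8.36, 8.12 and 8.13 in TKO, in the same order of embryos. The change of Dnah11 was -0.35 ± 0.11 (SE; limma adjusted p = 0.0765), and WT 1 and WT 5 again overlapped the TKO embryos. Both changes depended on the WT embryos used. Without WT 3 they were -0.28 for Dnah9 and -0.23 for Dnah11 (limma adjusted p = 0.588 and 0.406). WT 3 is the only WT male. With sex in the model, a change without WT 3, here and for the genes below, therefore compares females only. Without WT 5 both changes passed, at -0.63 and -0.39 (limma adjusted p = 0.0284 and 0.0393). Dnah17, the sperm-tail relative of Dnah9 and Dnah11, averaged 4.24 (SD 0.12) over 5 WT and 4.13 (SD 0.06) over 5 TKO embryos, below the filter on dim genes at 4.58, and was not tested.

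No inner arm heavy chain passed, and 5 of 6 had a change below 0. Dnah1, a heavy chain of a single-headed inner arm, was 8.60, 9.03, 9.00, 8.79 and 8.38 in WT 1 to WT 5 and 8.40, 8.43, 8.41, 8.32 and 8.22 in TKO 1 to TKO 5. All WT embryos but WT 5 were above all TKO embryos. With a change of -0.43 ± 0.13 (SE; 95% interval -0.71 to -0.16; limma adjusted p = 0.0717) Dnah1 had the smallest p of the dynein genes below 0. Without WT 5 the same gene passed at -0.50 (limma adjusted p = 0.0129), and without WT 3 it stood at -0.29 (limma adjusted p = 0.380).

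Dnah6 was 9.33, 9.69, 9.92, 9.60 and 9.23 in WT and 9.25, 9.44, 9.38, 9.19 and 9.17 in TKO, with a change of -0.33 (limma adjusted p = 0.154). Again WT 2, WT 3 and WT 4 were above all TKO embryos, and WT 1 and WT 5 were among them. The remaining inner arm heavy chains changed less: Dnah10, of the double-headed inner arm, by -0.21, its partner Dnah2 by -0.14 and Dnah7a by -0.03, with limma adjusted p of 0.435, 0.526 and 0.961. Leaving out WT 3 brought Dnah6 to -0.15, Dnah10 to -0.01 and Dnah2 to 0.00070. Dnah7a varied most among the WT embryos, from 6.42 in WT 5 to 7.69 in WT 3. Dnah14, whose place in the arms is less well known, was 4.88, 4.97, 4.88, 4.97 and 4.81 in WT and 4.97, 5.06, 5.18, 5.00 and 4.90 in TKO, a change of 0.15 (limma adjusted p = 0.382), or 0.09 without TKO 3. Dnah14 was the tested dynein gene nearest to the filter, with a mean of 4.96.

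**Figure D2:**
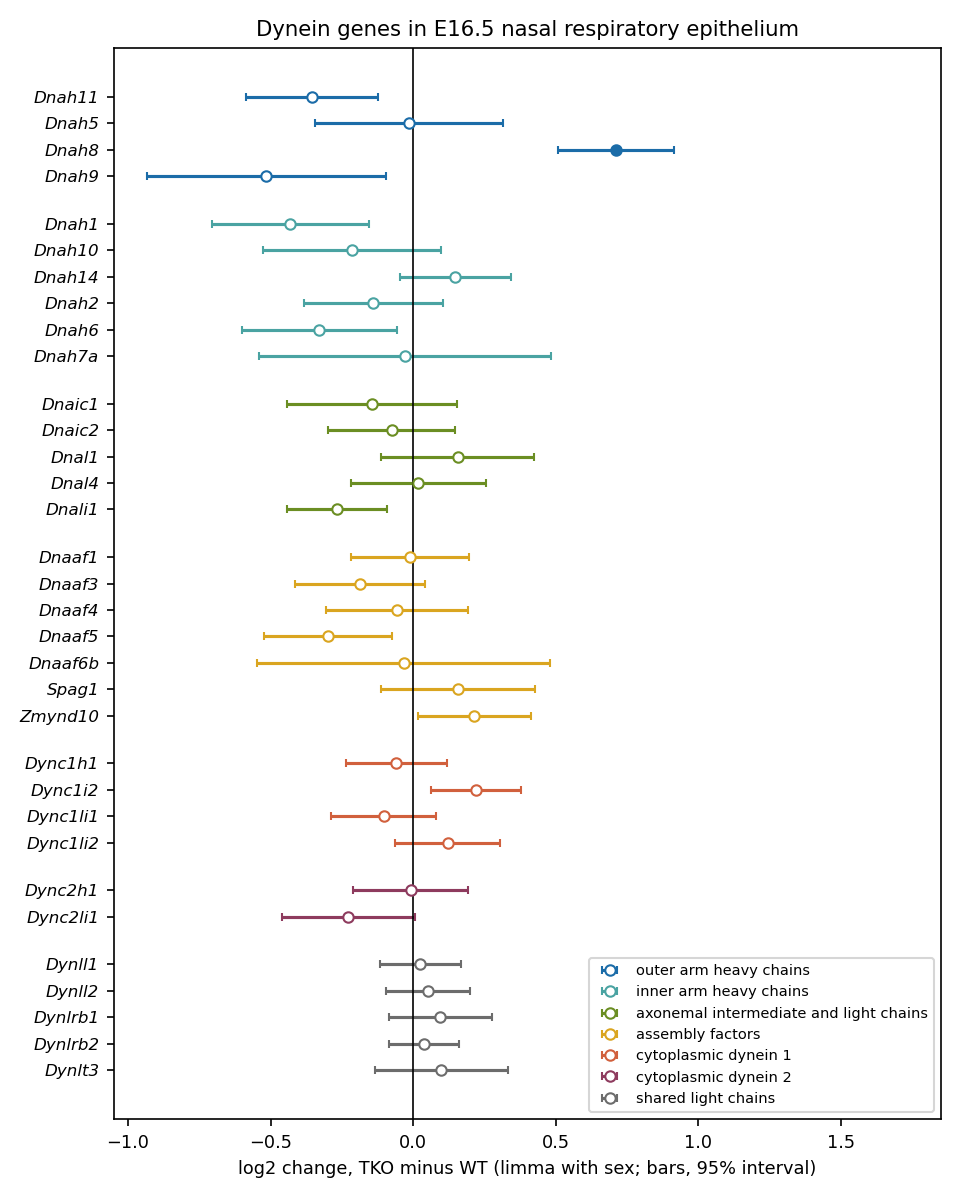
Change between genotypes (TKO minus WT, log2, limma with sex) of the 33 tested dynein genes, with 95% intervals not adjusted for the number of genes, coloured by class; a filled point marks an adjusted p below 0.05. Dnah8 at 0.71 is the only filled point, and Dnah9 at -0.51 and Dnah1 at -0.43 lie farthest to the left.

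Intermediate and light chains of the axonemal arms did not pass either. Dnali1, a light intermediate chain of inner arms, was 11.38, 11.41, 11.54, 11.47 and 11.19 in WT 1 to WT 5 and 11.19, 11.27, 11.16, 10.99 and 11.14 in TKO 1 to TKO 5. Only WT 5 lay within the range of the TKO embryos, and the change was -0.27 ± 0.08 (SE; limma adjusted p = 0.0794); without WT 5 it passed at -0.31 (limma adjusted p = 0.0225). Dnaic1 (now Dnai1), an outer arm intermediate chain, was 8.65, 8.81, 9.05, 8.98 and 8.31 in WT and 8.56, 8.78, 8.82, 8.57 and 8.59 in TKO, and Dnaic2 (now Dnai2), its partner, was 9.17, 9.41, 9.50, 9.38 and 9.01 in WT and 9.24, 9.31, 9.34, 9.11 and 9.22 in TKO. For both, the TKO embryos lay inside the WT range, and the changes were -0.14 (95% interval -0.44 to 0.15) and -0.08 (-0.30 to 0.15). Dnal1, the light chain on the outer arm motor, was 7.48, 7.79, 7.61, 7.62 and 7.56 in WT and 7.72, 7.93, 8.00, 7.43 and 7.45 in TKO. TKO 1, TKO 2 and TKO 3 were higher than TKO 4 and TKO 5, and the change of 0.16 did not pass (limma adjusted p = 0.520); it was 0.25 without WT 3 and 0.05 without TKO 3. Dnal4 changed by 0.02.

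The factors that assemble the arms gave 0 calls among 7 tested, with 1 higher and 1 lower at an unadjusted p below 0.05. Over all genes 5.51% were called, and 13.2% were higher and 7.72% lower at that unadjusted p. Dnaaf5, a HEAT-repeat protein needed for arm assembly, was 9.10, 9.24, 9.36, 9.28 and 8.92 in WT 1 to WT 5 and 8.84, 8.94, 9.07, 8.70 and 8.91 in TKO 1 to TKO 5, a change of -0.30 (limma adjusted p = 0.119). Zmynd10, a zinc-finger co-chaperone for the heavy chains, went the other way, at 10.32, 10.73, 10.60, 10.68 and 10.50 in WT and 10.69, 10.79, 10.94, 10.69 and 10.74 in TKO, a change of 0.21 (limma adjusted p = 0.201). For both genes the groups overlapped by few embryos: WT 5 fell among the TKO embryos for Dnaaf5, and WT 2 did for Zmynd10. Dnaaf3 was 8.84, 9.17, 9.08, 9.05 and 8.68 in WT and 8.72, 8.83, 8.91, 8.81 and 8.66 in TKO, a change of -0.19 (limma adjusted p = 0.336). Without WT 3 the change of Dnaaf5 was -0.18 and that of Dnaaf3 -0.12, without WT 5 Dnaaf5 passed at -0.35 (limma adjusted p = 0.0371), and without TKO 3 Zmynd10 was at 0.14. Dnaaf1, a leucine-rich repeat protein, Dnaaf4 and Spag1, both with tetratricopeptide repeats, changed by -0.01, -0.06 and 0.16 (Spag1 by 0.32 without WT 3 and by 0.06 without TKO 3), and Dnaaf6b, an X-linked gene of the PIH family of assembly factors, by -0.03 with a wide interval from -0.55 to 0.48. Dnaaf6, on chromosome 1, averaged 3.61 (SD 0.13) over 5 WT and 3.39 (SD 0.18) over 5 TKO embryos, below the filter.

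In the promoters of the assembly factors another motif was frequent. GTTGCC, an arm of the X-box that RFX factors bind and that is known from ciliary genes, stood on either strand in 5 of the 6 assembly factors with a promoter in the table, in 3 of 16 axonemal subunits and in 14.1% of all 27025 genes. Dnaaf6 and Dnaaf6b are both among these assembly factors, and the letters around their matches are nearly the same, so their matches may not be independent. The motif was also found in 3 of 5 genes of cytoplasmic dynein and in 2 of 4 shared light chains. Windows of 30 bases are shown for 4 genes, with the match in capitals (GTTGCC, or GGCAAC where it is on the other strand). They set a gene of the arm (Dnaic2), of its assembly (Dnaaf4 and Zmynd10) and of the shared chains (Dynlrb2) side by side.
Dnaaf4 (chr9:72958780-72958809, + strand): gccggaagtgatGGCAACcccgcaatcccc
Zmynd10 (chr9:107547324-107547353, + strand): tcaagcgcttcaacggcttGGCAACtgccc
Dnaic2 (chr11:114727381-114727410, + strand): ccagggttgctaGGCAACtggtaaactccg
Dynlrb2 (chr8:116504952-116504981, + strand): acttcctgcctgGTTGCCtagcaacggggg
None of these 4 genes passed the test between genotypes. The windows of Dnaaf4, Zmynd10 and Dnaic2 also lie inside the span of the gene.

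Cytoplasmic dynein 1 showed small changes in both directions. Dync1h1, its heavy chain, was 8.58, 8.58, 8.39, 8.41 and 8.72 in WT 1 to WT 5 and 8.57, 8.44, 8.39, 8.28 and 8.46 in TKO 1 to TKO 5. The groups overlapped throughout most of their range, and the change was -0.06 (95% interval -0.23 to 0.12). Dync1i2, the intermediate chain found in most cells, was 8.78, 8.94, 8.63, 8.74 and 9.00 in WT and 9.01, 8.97, 9.06, 8.92 and 8.94 in TKO. TKO embryos were close together near the top of the WT range, 2 of them above it, and the change of 0.22 ± 0.07 (SE) did not pass (limma adjusted p = 0.101); without WT 5 it did, at 0.25 (limma adjusted p = 0.0450).

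Of the light intermediate chains that link the motor to cargo adaptors, Dync1li1 was 7.92, 7.74, 7.68, 7.68 and 7.90 in WT and 7.82, 7.68, 7.54, 7.56 and 7.64 in TKO, a change of -0.10 (limma adjusted p = 0.540). Dync1li2 was 7.97, 8.02, 7.89, 7.78 and 8.14 in WT and 8.18, 8.08, 7.97, 7.98 and 8.06 in TKO, a change of 0.12 (limma adjusted p = 0.464). The embryos of both groups overlapped for each of them, and without TKO 3 Dync1li1 stood at -0.02 and Dync1li2 at 0.18, and Dync1h1 at -0.0032. Dync1i1, the intermediate chain known mainly from neurons, averaged 4.54 (SD 0.25) over 5 WT and 4.44 (SD 0.10) over 5 TKO embryos and with a mean of 4.49 lay just below the filter.

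Cytoplasmic dynein 2, the return motor of intraflagellar transport, was represented among the genes taken by symbol by its heavy chain and its light intermediate chain. Wdr34 and Wdr60 of the same motor stand under earlier symbols and are given below. Dync2h1 was 8.45, 8.66, 8.71, 8.53 and 8.41 in WT 1 to WT 5 and 8.57, 8.69, 8.66, 8.45 and 8.40 in TKO 1 to TKO 5, with a change of -0.01 (95% interval -0.21 to 0.19). Dync2li1 was 9.81, 9.95, 10.11, 10.02 and 9.70 in WT and 9.76, 9.86, 9.80, 9.56 and 9.47 in TKO, with a change of -0.23 (95% interval -0.46 to 0.01; limma adjusted p = 0.248). WT 2, WT 3 and WT 4 exceeded all TKO embryos for Dync2li1, but not for Dync2h1, and without WT 3 the change of Dync2li1 was -0.09.

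Changes of the 5 shared light chains were between 0.02 and 0.10 (with quantile normalization Dynll1 and Dynll2 were below 0), and none had an unadjusted p below 0.05. Over all genes 20.9% did, in either direction. Dynlrb1, a roadblock light chain, was 10.66, 10.66, 10.37, 10.59 and 10.53 in WT and 10.43, 10.62, 10.81, 10.57 and 10.66 in TKO (change 0.09). Dynlt3, a Tctex-type light chain on the X chromosome, was 6.80, 6.92, 6.53, 6.78 and 6.82 in WT and 6.95, 6.93, 6.88, 6.37 and 6.68 in TKO (change 0.10), and its lowest value was that of TKO 4. Dynll2, an LC8 light chain, was 8.15, 8.24, 8.09, 8.25 and 8.40 in WT and 8.31, 8.14, 8.34, 8.13 and 8.06 in TKO (change 0.05). The groups overlapped for all of them, and Dynll1 (0.02) and Dynlrb2, the roadblock chain known from ciliated cells (0.04), changed less still. Dynlrb2 ranged from 12.44 to 12.57 in the WT embryos and from 12.46 to 12.60 in the TKO embryos.

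By class, the median change was -0.14 over 15 tested axonemal subunits (range -0.51 to 0.71), -0.03 over 7 assembly factors, -0.03 over 6 genes of cytoplasmic dynein (range -0.23 to 0.22) and 0.05 over the 5 shared light chains. Of the axonemal subunits 11 of 15 had a change below 0, against 8344 of 16635 over all genes tested. These members move together from embryo to embryo, so their shared sign is not a count of independent genes, and the difference between the classes was not tested. Without WT 3 the axonemal median was 0.0032. With sex in the model that fit compares females only, and females alone gave the same median. With 6 structural genes of ciliated cells as covariate, a setting chosen after the data were seen, it was 0.14, and with the ciliated marker level or the non-epithelial score as covariate it was -0.38 or -0.23. Of the 6 structural genes, Cfap43 fell between genotypes (-0.55), and Hydin and Sntn were at -0.60 and -0.53 without passing. Rsph1, Tekt1 and Cfap126 were at -0.02, 0.07 and 0.05, so this covariate itself differs between the genotypes.

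The embryos differed in their level of axonemal dyneins within each genotype. Taken as the mean of values centred per gene, the 15 axonemal subunits stood at -0.10, 0.16, 0.28, 0.12 and -0.27 in WT 1 to WT 5 and at -0.05, 0.10, 0.10, -0.15 and -0.19 in TKO 1 to TKO 5. WT 3 was the highest and WT 5 the lowest of all embryos, so that the WT range enclosed the TKO range. Among the 5 WT embryos WT 3 was highest for 11 and WT 5 lowest for 13 of the 15 genes. The assembly factors had the same extremes, at 0.16 in WT 3 and -0.29 in WT 5, whereas the cytoplasmic genes stood at -0.01 in WT 3 and 0.07 in WT 5. The median SD among WT embryos was 0.24 for axonemal subunits, 0.18 for assembly factors, 0.14 for cytoplasmic genes and 0.15 over all genes, and among TKO embryos it was 0.13, 0.12, 0.11 and 0.14. In captured tissue, fewer ciliated cells and less RNA per cell cannot be told apart.

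**Figure D3:**
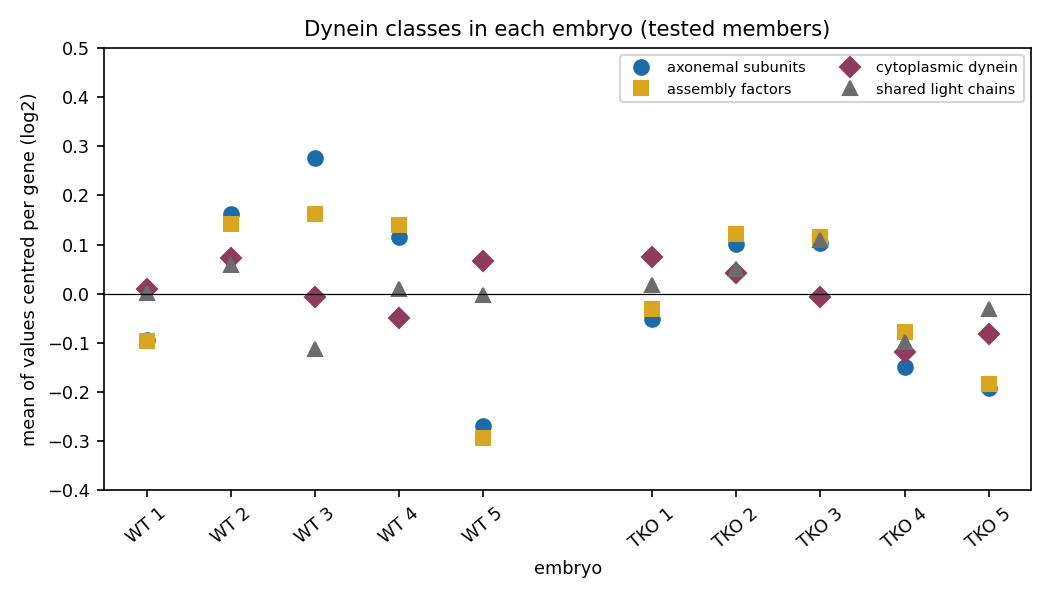
Mean of the tested genes of each class in each embryo, after centring every gene on its mean over all 10 embryos (log2). Axonemal subunits and assembly factors run together from 0.28 and 0.16 in WT 3 to -0.27 and -0.29 in WT 5, while cytoplasmic dynein and the shared light chains stay between -0.12 and 0.11.

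Dnah8 did not follow the other 14 axonemal subunits among the WT embryos. WT 5, the lowest embryo for the other subunits (-0.27), had a Dnah8 value of 8.52, while WT 3, the highest (0.32), had 8.45. Centred Dnah8 minus the mean of the others was -0.28, -0.32, -0.69, -0.74 and -0.02 in WT 1 to WT 5 and 0.39, 0.39, 0.39, 0.42 and 0.45 in TKO 1 to TKO 5. These differences were close to one another in TKO and spread in WT; since Dnah8 was picked for its change, they are given without a test.

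**Figure D4:**
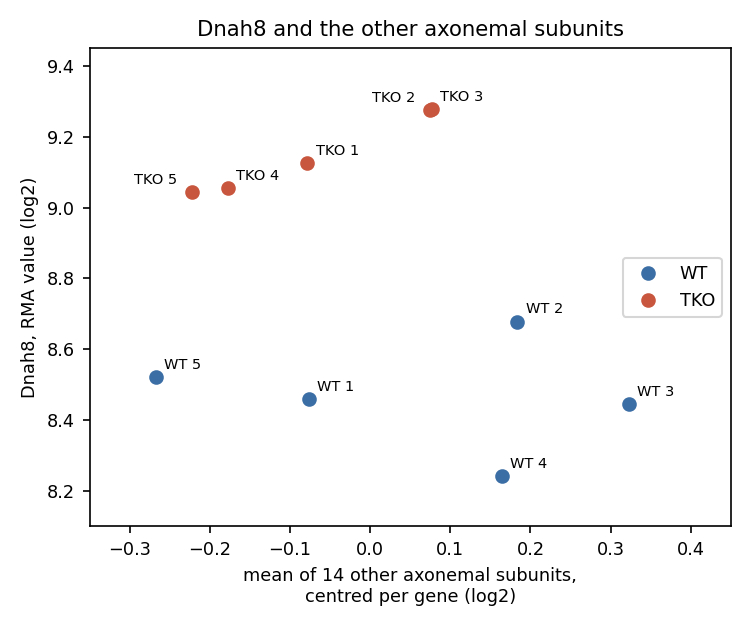
Dnah8 (RMA value, log2) against the mean of the 14 other tested axonemal subunits, centred per gene, with 1 point per embryo. TKO embryos lie between 9.04 and 9.28 and WT embryos between 8.24 and 8.68, although the genotypes overlap along the horizontal axis.

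Several genes of the arms and of dynein 2 stand on the array under earlier symbols and so were not among the 36; they were looked up by name after the values above were seen. Of the outer arm docking complex, Armc4 (now Odad2) changed by -0.41 (limma adjusted p = 0.0526), and Ccdc114 (Odad1), Ccdc151 (Odad3) and Ttc25 (Odad4) by -0.01, -0.03 and -0.08. Armc4 ranged from 8.47 to 9.06 in the WT embryos and from 8.30 to 8.58 in the TKO embryos. The intermediate chain genes Wdr63 (Dnai3), Wdr78 (Dnai4) and Casc1 (Dnai7) changed by -0.09, -0.09 and -0.05. Wdr34 (Dync2i2), an intermediate chain of dynein 2, fell 1.34-fold (limma adjusted p = 0.0386), and Wdr60 (Dync2i1), its partner, had a change of -0.23 (limma adjusted p = 0.225). Wdr34 was 8.83, 9.06, 9.04, 9.04 and 8.60 in WT 1 to WT 5 and 8.46, 8.55, 8.64, 8.43 and 8.42 in TKO 1 to TKO 5, so that only WT 5 overlapped the TKO embryos. The genes under earlier symbols were fitted in the main setting only. Whether the call of Wdr34 holds with single embryos left out or in other settings was not tested.

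Of the partners of cytoplasmic dynein, dynactin subunits and dynein regulators, 26 were tested, 1 rose and 0 fell, against 5.51% called over all genes. Actr1a, the actin-related protein that forms the dynactin filament, was 9.21, 9.32, 8.79, 8.88 and 9.06 in WT 1 to WT 5 and 9.39, 9.59, 9.51, 9.30 and 9.34 in TKO 1 to TKO 5. WT 2 alone lay among the TKO embryos, and Actr1a rose 1.35-fold after adjustment for sex (limma adjusted p = 0.0323). In 11 of 26 settings no gene of these 26 was called higher, including the fits that left out WT 3, WT 4, TKO 1, TKO 3 or TKO 5. Capza1, a capping protein of that filament (change 0.22), the cargo adaptor gene Bicd2 (-0.25) and Spdl1, the adaptor at kinetochores (0.29), came next and did not pass (limma adjusted p = 0.102, 0.119 and 0.227). Bicd2 was 7.28, 7.15, 7.10, 7.30 and 7.25 in WT and 7.07, 6.83, 6.84, 6.83 and 7.09 in TKO, with all TKO embryos below all WT embryos, as for 2.07% of all genes and 7.6% in either direction. The median over the 26 genes was 0.00078. Of 16 tested chaperones and partners of arm assembly or attachment, 0 passed, 3 were higher and 1 lower at an unadjusted p below 0.05, and the median was -0.04. Over all genes 13.2% were higher and 7.72% lower at that unadjusted p. Pih1d2 (-0.29), Pih1d1 (0.21), Efcab1, the calcium sensor of the outer arm (0.23), and Lrrc56, a factor for arm transport (0.29), had the smallest p.

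The captures differed in other cells as well. Of 8 epithelial markers 0 were called, although Grhl2 had no overlap, at 8.57 in WT and 8.36 in TKO (limma adjusted p = 0.0702); the list had a mean of centred values of -0.06 to 0.08 in the WT and of -0.10 to 0.03 in the TKO embryos. Of 14 markers of ciliated cells, Gmnc, Ccno, Mcidas and Myb rose and Cfap43 fell, and Foxj1 was 10.86 in WT and 11.04 in TKO (limma adjusted p = 0.0784). Hydin, Sntn and Rfx2 went the other way without passing, at -0.60, -0.53 and -0.29 (limma adjusted p = 0.0646, 0.142 and 0.150). Of the 14 markers 8 had a change above 0 and 6 below. The mean of this list ran from -0.21 to 0.05 in WT and from -0.05 to 0.17 in TKO, with WT 5 the lowest. All 8 skeletal muscle markers had a change below 0, 1 passed, and their mean ran from -0.63 to 1.25 in WT and from -0.80 to 0.38 in TKO; the score of 6 non-epithelial lists ran from -0.36 to 0.39 and from -0.43 to 0.18. Of 10 mesenchymal markers 10 had a change below 0 and 1 fell, of 6 endothelial markers 1 fell, and of 6 basal cell markers 1 fell. Of 7 secretory cell markers 7 had a change above 0 with no call, and of 7 olfactory neuron, 6 cartilage, 7 leukocyte and 5 glial markers 0 passed. At an unadjusted p below 0.05, 5 of the secretory markers were higher, against 13.2% of all genes. Bpifa1 and Muc16 had no overlap, with TKO higher, as for 5.54% of all genes. The mean of the secretory list ran from -0.60 to 0.07 in WT and from 0.03 to 0.39 in TKO. The mean of the olfactory neuron list ran from -0.85 in WT 3 to 1.63 in WT 5 and from -0.97 to 0.95 in TKO. This list is not part of the non-epithelial score, and its relation to the dynein levels was not tested. Ptprc, the defining marker of leukocytes, and Scgb1a1, that of club cells, lay below the filter. The part of these cells in the change of Dnah8 or of the other dynein genes was not tested beyond the covariate given above.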

How the data were processed

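The deposited table holds log2 values that the authors made with RMA in the Affymetrix Expression Console, per the labels and the submitters' processing notes, with no version given. The table has 41345 probe sets, of which 23521 carry 1 gene symbol, 1814 several and 16010 none. Where several probe sets had the same symbol, the brightest on average stood for the gene (22180 genes), and genes with a mean below the 25th percentile (4.58) were left out, leaving 16635. Another probe set existed for Dnah2 and Dnaaf3, with changes of -0.19 and -0.10. All 36 dynein genes matched RefSeq by Entrez ID, and 31 had a promoter there.

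TKO was set against WT in limma 3.58.1 (R 4.3.3) with labelled sex as a term and the variance trend of eBayes; tests were two-sided and p-values adjusted after Benjamini and Hochberg over all 16635 genes. Members, classes and lists were chosen with earlier results of these data known. Of the dynein genes, values per array are given for those past the threshold, for those without overlap, for up to 3 genes with the smallest p in each class and for Dnah5, Dnah9, Dnah11, Dnaic1, Dnaic2, Dync1h1 and Dync2h1; from each partner list up to 4 genes are named. On 10 simulated sets for TKO against WT with 16635 genes, changes of 0.25, 0.5, 1 and 2 were called for 7%, 53.2%, 90.6% and 99.6% of changed genes, and 4.5% of calls were false. Same-numbered embryos of the 2 genotypes correlated at -0.13 to 0.38 in their deviations from the group means, so the numbers do not pair them. Arrays correlated at 0.975 to 0.989. The alternatives tried changed the sex term, the filter, the scaling, the variance model, array weights, the probe sets, the embryos used and the covariates. Figures were drawn with matplotlib 3.10.9.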

Additional observations from a re-analysis of the deposited data

How the results depend on the processing

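Of 26 settings, Dnah8 passed in 24 and was above 0 in all. The count of dynein genes called higher was 1 (1 to 2 with 1 array left out, 0 in females only, 0 with the non-epithelial score and 3 with 6 structural ciliated genes as covariate), and the count called lower was 0 (0 to 5 with 1 array left out, 5 without WT 5, 3 with quantile normalization and 9 with the ciliated marker level as covariate, a list in which 4 genes rose and 1 fell between genotypes). With the replicate number as a block 2 were called lower, Dnah1 and Dnah11; same-numbered embryos did not all correlate best with each other. The fit without WT 3 and WT 5 and that with the structural genes were added after the data were seen. The axonemal median was -0.38 with the ciliated marker level and 0.14 with the structural genes, and -0.20 to 0.0032 with 1 array left out. The assembly factor median was 0.18 with the structural genes, -0.22 with the ciliated marker level and -0.14 with the non-epithelial score, and -0.12 to 0.051 with 1 array left out, and the cytoplasmic median -0.092 with quantile normalization and 0.037 with the shared light chains added. For these the cause was not tested.

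Dynactin and regulator calls, 1 higher in the report, were 0 to 2 with 1 array left out, 2 without sex, and 0 with all probe sets, in females only, with each of the 3 covariates and without WT 3 and WT 5; 1 was lower with the structural genes. Of the assembly partners, 1 was higher with the block and 2 with the structural genes, and 1 was lower without sex and with quantile normalization, 4 with the ciliated marker level, and 0 to 1 with 1 array left out.

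Some changes turned sign, none of them called in the report. In females only Dnaaf1 was 0.051, Dnaaf4 0.016, Dnaaf6b 0.13, Dnah2 0.00070, Dnah5 0.18, Dnah7a 0.35, Dnaic1 0.0032, Dnaic2 0.045, Dync2h1 0.10 and Dynll1 -0.014. Without sex Dnaaf1 was 0.028, Dnah5 0.035, Dnah7a 0.019, Dynll2 -0.028 and Dynlt3 -0.010. With the structural genes Dnaaf1 was 0.18, Dnaaf3 0.031, Dnaaf4 0.18, Dnaaf6b 0.52, Dnah10 0.12, Dnah2 0.095, Dnah5 0.35, Dnah7a 0.53, Dnaic1 0.18, Dnaic2 0.14, Dync2h1 0.16 and Dync2li1 0.0023. With the ciliated marker level Dnal1 was -0.050, Dnal4 -0.15, Dynll1 -0.0075, Dynlrb2 -0.024, Dynlt3 -0.0069 and Spag1 -0.045. With the non-epithelial score Dnal1 was -0.090, Dnal4 -0.092, Dynlrb2 -0.016 and Dynlt3 -0.023. Without WT 3 and WT 5 Dnah5 was 0.062, Dnah7a 0.17, Dync2h1 0.065, Dynll1 -0.056 and Dynlrb1 -0.017. Quantile normalization gave Dnal4 -0.011, Dynll1 -0.039 and Dynll2 -0.010, and array weights gave Dnal4 -0.0029. With 1 array left out, ranges that crossed 0 were -0.067 to 0.051 for Dnaaf1, -0.14 to 0.016 for Dnaaf4, -0.18 to 0.13 for Dnaaf6b, -0.20 to 0.00070 for Dnah2, -0.10 to 0.18 for Dnah5, -0.19 to 0.35 for Dnah7a, -0.26 to 0.0032 for Dnaic1, -0.14 to 0.045 for Dnaic2, -0.11 to 0.12 for Dnal4, -0.071 to 0.10 for Dync2h1, -0.014 to 0.049 for Dynll1 and -0.0021 to 0.090 for Dynlrb2. Of the changes that turned sign, only that of Dnah5 passed in a setting that turned it, with the structural genes (limma adjusted p = 0.0459). Spag1 passed with the structural genes with its sign kept (limma adjusted p = 0.0426). Dnaaf3, Dnah10 and Dync2li1 passed with the ciliated marker level, also with their sign kept (limma adjusted p = 0.0392, 0.0274 and 0.0156).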
